A study of Mus musculus with 4 samples.

Results

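The Schlafen genes of mouse CD4+ T cells were followed from the naïve state into activation, with and without the transcriptional repressor Capicua (CIC). Genes were taken by name from the deposited gene tables, and 6 members were used, *Slfn1*, *Slfn2*, *Slfn3*, *Slfn5*, *Slfn8* and *Slfn9*, out of 23339 named genes. All 6 were listed, and 11 genes carried a name beginning with Slfn, of which 10 lay on chromosome 11. RNA-seq was done on splenic CD4+ T cells of C57BL/6J mice, with 4 libraries in all, 1 for each genotype and day. The WT group was *Cic* f/f and the cKO group was *Cic* f/f carrying *Cd4-Cre*, so both groups carried the floxed *Cic* alleles and only the cKO group carried Cre, which the *Cd4* promoter drives in all cells that have passed through the CD4-expressing thymocyte stage, CD8+ T cells included. The mice were 10 to 12 weeks old by the labels. Day 0 cells were naïve, and day 3 cells had been kept for 3 days on plates coated with antibodies to CD3 and CD28, which engage the T-cell receptor and its co-stimulatory receptor. The labels and the published methods disagreed on the sort: the labels wrote CD44hi CD62Llo for cells they called naïve, a gate that usually marks effector and memory cells, whereas the methods wrote CD44lo CD62Lhi. How many mice gave each library was not given in the sources used here.

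Schlafen proteins (the name is German for "to sleep") are a mammalian family whose founding members were found through their regulation in developing and activated T cells. Forced expression of *Slfn1* slows the growth of thymocytes, and an inherited loss of *Slfn2* function in mice leaves T cells unable to keep their quiescent state, so that they die when called to divide. The mouse family falls into short members (*Slfn1*, *Slfn2*), an intermediate member (*Slfn3*) and long members with a helicase-like carboxy-terminal part (*Slfn5*, *Slfn8*, *Slfn9*), and several of its genes respond to type I interferon.

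Promoter sequences were taken from RefSeq (GRCm38.p6) for the 250 bases before a listed start of each gene, and all 6 members had an entry. The 3 long members are printed 5′ to 3′ on the strand of the gene because they were the members that held the letters GAAANNGAA, the core of the interferon-stimulated response element. Capitals mark each match on either strand, and no match overlapped another. *Slfn5* lies on the plus strand (chr11:82951852-82952101), and *Slfn8* (chr11:83020811-83021060) and *Slfn9* (chr11:82991831-82992080) lie on the minus strand. The RefSeq span of *Slfn5* begins at 82951349, so its window lies inside that span, before a start within the gene.
Slfn5: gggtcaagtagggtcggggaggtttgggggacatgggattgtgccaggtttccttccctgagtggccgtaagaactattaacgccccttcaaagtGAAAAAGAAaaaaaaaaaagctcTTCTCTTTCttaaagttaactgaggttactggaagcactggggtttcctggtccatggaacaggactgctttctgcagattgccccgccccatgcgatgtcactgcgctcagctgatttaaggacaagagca
Slfn8: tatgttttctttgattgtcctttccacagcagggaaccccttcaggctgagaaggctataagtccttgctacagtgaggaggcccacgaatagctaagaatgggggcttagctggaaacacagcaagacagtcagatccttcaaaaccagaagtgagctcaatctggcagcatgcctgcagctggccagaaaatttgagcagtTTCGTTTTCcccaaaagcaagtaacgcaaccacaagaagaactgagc
Slfn9: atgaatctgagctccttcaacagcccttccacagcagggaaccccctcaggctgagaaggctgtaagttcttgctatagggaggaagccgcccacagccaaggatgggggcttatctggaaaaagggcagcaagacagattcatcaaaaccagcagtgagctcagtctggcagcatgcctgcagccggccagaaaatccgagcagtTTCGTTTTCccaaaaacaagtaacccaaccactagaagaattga

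The *Slfn5* window held 2 matches, which began 155 and 132 bases before that internal start. The *Slfn8* and *Slfn9* windows held 1 match each, with the same 9 letters, beginning 47 bases before the start in *Slfn8* and 44 bases before it in *Slfn9*. *Slfn8* had a second RefSeq start, downstream of the one shown, and the same match began 135 bases before that start. Over the 250 bases before the start in 32851 RefSeq entries, 7.13% held the motif. The *Slfn8* and *Slfn9* windows were identical at 206 of 242 aligned bases (85.1%), and every other pair among the 6 members was at or below 67.6%. None of the 6 windows held one of the CIC octamers TGAATGAA, TGAATGGA, TCAATGAA or TCAATGGA, which 3.19% of those entries held on either strand, nor the forkhead motif GTAAACA, which 3.17% held. A match describes letters in the window, not a bound site.

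Values are FPKM, fragments scaled to transcript length and to sequencing depth, as the authors deposited them. A ratio is log2 of the quotient of 2 FPKM values after 0.1 was added to each, which understates differences of low genes. With 1 library per condition there was no replicate check and no test; a gene is called past the size rule where the log2 ratio was over 1.5 in either direction, among named genes that reached 1 FPKM in one or the other library of a comparison. The WT and the cKO values came from tables normalised separately, which applies to every level set across the genotypes. Of the 23339 named genes, between 10441 and 10685 had an FPKM of at least 1 in a library, and the number of reads was not known. The targeted gene *Cic* was at 25.4 FPKM on day 0 and 17.8 on day 3 in WT, and at 24.9 and 12.2. in cKO A gene-level value covers exons inside and outside the floxed stretch, so it did not check the genotype labels.

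Markers of other cells were present on day 0. All 9 macrophage and monocyte markers, 1 of them listed under its names *Adgre1* and *Emr1*, were found, and their summed FPKM was 262 in WT day 0 and 79.6 in cKO day 0, against 3.41 in WT day 3 and 2.80 in cKO day 3, where *C1qa*, *C1qb*, *C1qc* and *Emr1* were listed at 0. The sum over 8 neutrophil markers went from 66.4 to 1.45 in WT and from 33.5 to 1.64 in cKO. The sum over 7 erythroid markers went from 402 to 22.5 in WT and from 152 to 12.4 in cKO, and *Siglech*, a plasmacytoid dendritic cell marker, was listed at 0 on day 3 in both genotypes while the sum of its list of 5 went from 41.2 to 73.0 in WT and from 26.5 to 53.0 in cKO. The difference in that sum lay in *Bst2*, which the interferon list also holds (16.2 to 55.1 in WT and 13.1 to 41.5 in cKO), and *Ccr9* went from 4.43 to 0.542 in WT and from 4.21 to 0.562 in cKO. The 8 B-cell markers summed to 21.5 and 54.0 in WT and to 44.6 and 75.6 in cKO, on day 0 and day 3. The 8 T-cell markers found of 9 listed were high in every library, with sums from 1121 to 1368. Each of 8 cell-division markers was past the size rule on day 3 in both genotypes, with sums going from 42.2 to 975 in WT and from 30.0 to 941 in cKO. The part of these cells in the Schlafen values was not tested.

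On day 0 the family was dominated by its short members. *Slfn2*, the member tied to T-cell quiescence, measured 109 FPKM before and 108 after activation in WT, and 107 before and 112 after in cKO. It was the highest of the 6 in all 4 libraries, and its values spanned the narrowest range of the 6. *Slfn1*, the growth-inhibitory member of thymocytes, stood at 72.1 FPKM in naïve and 47.0 in activated WT cells, against 71.0 in naïve and 72.9 in activated cKO cells. WT day 3 was the low library for *Slfn1*, and the other 3 lay close together. Per length, *Slfn1* and *Slfn2* together made up 70.0% of the summed FPKM of the 6 genes in WT day 0 and 69.6% in cKO day 0, and 76.3% and 77.0% on day 3.

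The long members *Slfn5* and *Slfn8* were high in naïve cells and lower after activation. *Slfn5*, whose human counterpart is induced by interferon, was at 29.9 FPKM on day 0 and 4.53 on day 3 in WT, and at 31.5 and 6.73. in cKO Both day 3 libraries were far below both day 0 libraries. *Slfn8* measured 40.2 FPKM before and 17.7 after activation in WT, and 40.0 before and 22.7 after in cKO. Its day 0 libraries were nearly equal, and its day 3 libraries were lower in both genotypes.

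*Slfn3* and *Slfn9* had the opposite direction. *Slfn3*, the intermediate member, stood at 4.51 FPKM in naïve and 16.2 in activated WT cells, against 3.82 in naïve and 17.1 in activated cKO cells. *Slfn9*, a long member, was at 2.98 FPKM on day 0 and 9.66 on day 3 in WT, and at 2.26 and 8.87. in cKO For both genes the 2 day 3 libraries were above the 2 day 0 libraries, and in the naïve cells these were the lowest of the 6 members.

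**Figure D1:**
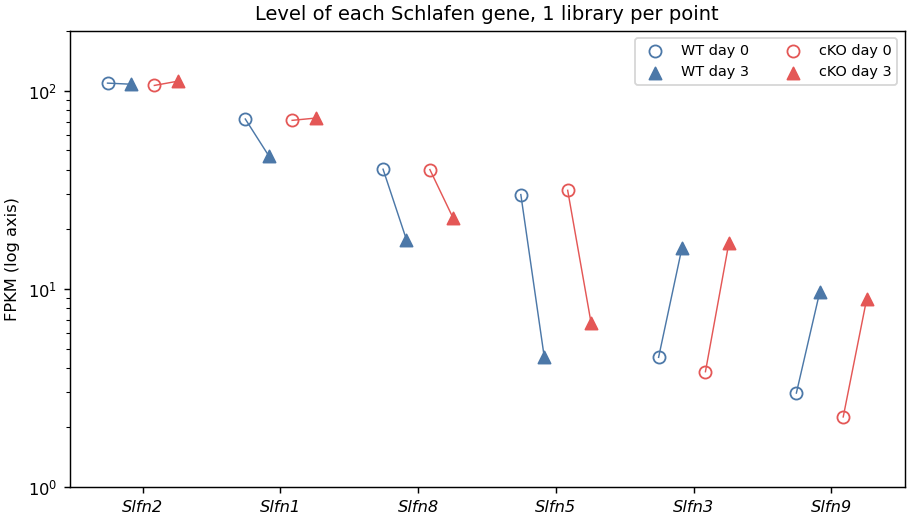
FPKM of the 6 Schlafen genes on a logarithmic axis, 1 point per library, with a line joining day 0 (circle) to day 3 (triangle) within a genotype (WT blue, cKO red). *Slfn2* lies between 107 and 112 in all 4 libraries, *Slfn5* drops from 29.9 to 4.53 in WT and from 31.5 to 6.73 in cKO, and *Slfn3* and *Slfn9* go the other way.

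The order of the levels was the same in both genotypes. On day 0 it was *Slfn2*, *Slfn1*, *Slfn8*, *Slfn5*, *Slfn3* and *Slfn9* from high to low, and on day 3 *Slfn3* and *Slfn9* both stood above *Slfn5*. The closest neighbours in that order were *Slfn8* and *Slfn3* in WT day 3, at 17.7 and 16.2 FPKM (1.10 times). Without replicates, whether neighbours differed beyond the spread was not tested. The highest member was 36.7 times the lowest in WT day 0 and 47.2 times in cKO day 0, against 23.8 and 16.6 times on day 3. The sum over the 6 genes was 259 FPKM in WT day 0 and 255 in cKO day 0, and 203 and 240 on day 3. Without *Slfn1* and *Slfn2* the sum was 77.7 and 77.6 on day 0, and 48.1 and 55.3 on day 3.

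**Figure D2:**
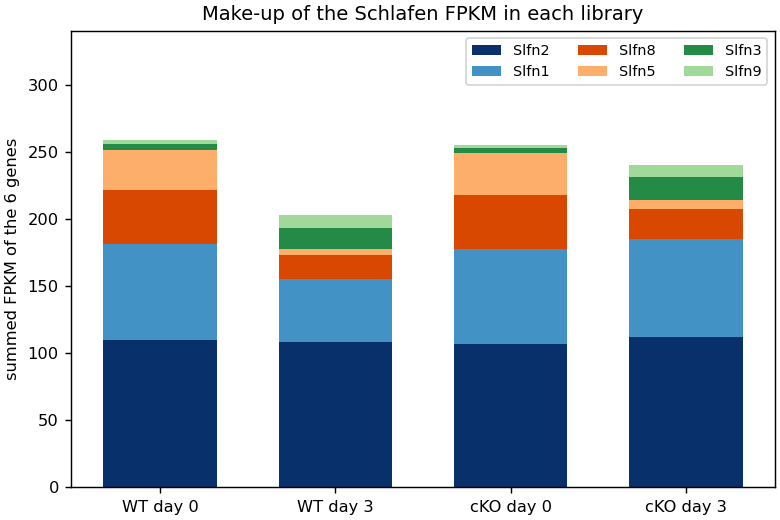
Summed FPKM of the 6 genes in each library, stacked by gene with the highest gene at the bottom. The total is 259 and 203 in WT (day 0, day 3) and 255 and 240 in cKO, and the orange bands of *Slfn8* and *Slfn5* are thinner on day 3 while the green bands of *Slfn3* and *Slfn9* are thicker.

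Which Schlafen genes differed after activation was asked first in WT. *Slfn3* (log2 ratio of day 3 to day 0, 1.82) and *Slfn9* (1.66) were past the size rule upward, and *Slfn5* (-2.70) was past it downward. *Slfn8* (-1.18), *Slfn1* (-0.62) and *Slfn2* (-0.02) were within it. The count was 3 of 6, beside 27.8% of the 11440 genes measured (19% higher and 8.84% lower). The median over the members was -0.32 and the median over all genes measured was 0.40. Relative to that median gene, *Slfn5* (-3.10) and *Slfn8* (-1.58) were past the rule and *Slfn3* (1.42) and *Slfn9* (1.26) were within it, so the WT count was 2 of 6, both lower. The split over all genes moved too, from 2173 higher and 1011 lower to 1435 and 1444. In these bulk samples, fewer cells of a type and less RNA per cell cannot be told apart, and the sums of macrophage, neutrophil and erythroid markers went down with *Slfn5* and *Slfn8*, their part not tested.

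In cKO cells the same 3 members were past the size rule. The log2 ratio of day 3 to day 0 was 2.13 for *Slfn3*, 1.93 for *Slfn9* and -2.21 for *Slfn5*, and -0.82 for *Slfn8*, 0.07 for *Slfn2* and 0.04 for *Slfn1*. The count was 3 of 6 beside 24.3% of the 11232 genes measured (17.3% higher and 6.96% lower). The median gene stood at 0.36, and relative to it the ratios were 1.76 for *Slfn3*, 1.56 for *Slfn9*, -2.57 for *Slfn5* and -1.18 for *Slfn8*, which left the same calls, while *Slfn2* (-0.29) and *Slfn1* (-0.33) turned from just above 0 to below it. Over 11013 genes measured in both genotypes, 1673 were past the rule upward in both, which was 80.6% of those in WT and 88.0% of those in cKO. Downward, 610 were shared, 71.8% of those in WT and 83.9% of those in cKO, and 4 genes were past it in opposite directions.

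The activation ratios of all 6 genes were more positive, or less negative, in cKO than in WT. The log2 ratio in cKO minus that in WT was 0.65 for *Slfn1*, 0.49 for *Slfn5*, 0.36 for *Slfn8*, 0.31 for *Slfn3*, 0.26 for *Slfn9* and 0.09 for *Slfn2*. Over the 11013 genes, 45.7% had a difference above 0, the median was -0.03, and the median size without sign was 0.23. For *Slfn3* and *Slfn9* the log2 ratio of cKO to WT was -0.23 and -0.39 on day 0 and 0.08 and -0.12 on day 3. For *Slfn1*, *Slfn5* and *Slfn8* it was -0.02, 0.07 and -0.01 on day 0 and 0.63, 0.56 and 0.36 on day 3. For *Slfn2* it was -0.04 and 0.05. The 6 differences came from the same 4 single libraries, so they are not independent of one another, and were not tested.

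**Figure D3:**
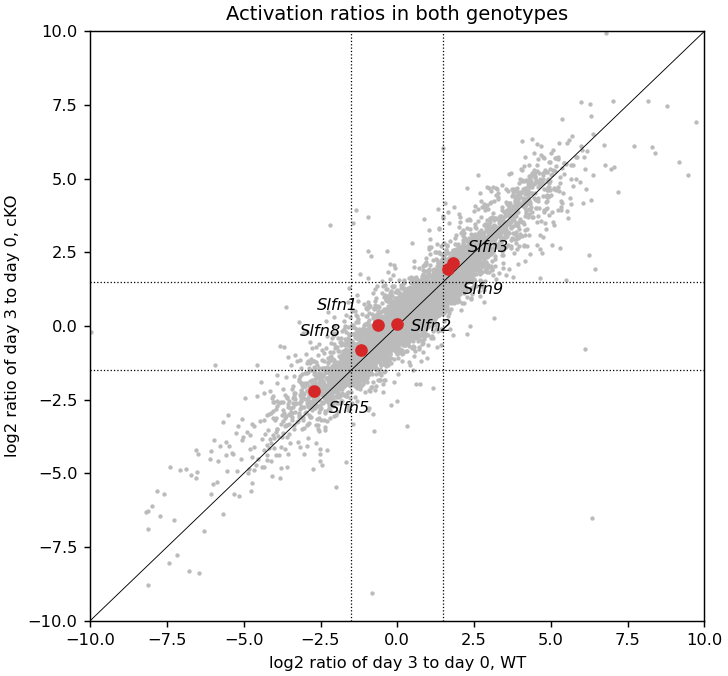
Log2 ratio of day 3 to day 0 in WT (x axis) and in cKO (y axis), 1 point per named gene (grey) with the 6 Schlafen genes in red; the diagonal marks equal ratios and the dotted lines the size rule of 1.5. All 6 red points lie above the diagonal, *Slfn1* by 0.65 and *Slfn2* by 0.09, and *Slfn3*, *Slfn9* and *Slfn5* lie past the dotted lines in both genotypes.

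Loss of CIC was set against WT within each day. On day 0 the log2 ratio of cKO to WT was -0.02 for *Slfn1*, -0.04 for *Slfn2*, -0.23 for *Slfn3*, 0.07 for *Slfn5*, -0.01 for *Slfn8* and -0.39 for *Slfn9*. None of the 6 was past the size rule, beside 2.3% of 10910 genes. The lower values of *Slfn3* and *Slfn9* stood beside lower sums of macrophage, neutrophil and erythroid markers in cKO day 0 (79.6 against 262, 33.5 against 66.4, and 152 against 402). The 8 cell-division markers were all lower in cKO day 0 too, with sums of 30.0 against 42.2 and a median log2 ratio of -0.47, and the 8 B-cell markers were all higher (44.6 against 21.5, median 1.03). The cell-division markers, like *Slfn3* and *Slfn9*, were higher on day 3 in both genotypes. The part of these markers in the result was not tested.

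On day 3 the ratio of cKO to WT was 0.63 for *Slfn1*, 0.56 for *Slfn5*, 0.36 for *Slfn8*, 0.08 for *Slfn3*, 0.05 for *Slfn2* and -0.12 for *Slfn9*. None of the 6 was past the size rule, beside 1.96% of 10895 genes. The 3 members with the highest ratios were those whose WT day 3 value was below their WT day 0 value by over 0.5 on the log2 scale, and the WT day 3 library enters both ratios. In size without sign, the median over the members was 0.055 on day 0 and 0.24 on day 3, against 0.15 and 0.19 over all genes measured. Values as small as these lie where single libraries cannot separate a difference from the spread.

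The family lies in a cluster on chromosome 11. The 8 deposited loci of the 10 Slfn names ran from 82911253 to 83286726 (375 kb) in coordinates that matched GRCm38, the build in which all 6 members and 99.2% of 21634 genes with a RefSeq entry overlapped their deposited locus. The submitters' processing notes named mm9 and no role for it, and the published methods gave mm9 as the build used for mapping. In the mm9 annotation, however, none of the 6 members overlapped its deposited locus. *Slfn5* (chr11:82911253-82964850) shared its locus with *Slfn5os* and *Unc45b*. *Slfn5os*, named for the opposite strand of *Slfn5*, was listed at 0 in all 4 libraries and *Unc45b*, a chaperone of muscle myosin, at 0.038 FPKM or 0. Whether strand was used in counting was not given in the sources used here, and without strand, reads of *Slfn5* and *Slfn5os* cannot be told apart. *Slfn9* (chr11:82978347-82991984) shared its locus with the microRNA gene *Mir7679*, listed at 0, and *Slfn8* (chr11:82998455-83020987) overlapped no other locus.

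*Slfn2* shared a single deposited locus (chr11:83027950-83070678) with the pseudogene *Slfn10-ps* and 4 loci without a name. *Slfn10-ps* measured 10.2 FPKM before and 13.4 after activation in WT, and 11.9 before and 13.3 after in cKO, so it was above *Slfn9* in every library. *Slfn1* (chr11:83114959-83124536) and *Slfn3* (chr11:83191330-83215154) overlapped no named gene, and *Slfn4* (chr11:83175186-83190216) ended 1113 bases before *Slfn3*. *Slfn4*, a gene of myeloid cells, stood at 0.717 FPKM in naïve and 0.801 in activated WT cells, against 0.448 in naïve and 0.643 in activated cKO cells, below the FPKM minimum of 1. *Slfn14* (chr11:83275112-83286726) went from 0.623 to 0.032 FPKM in WT and from 0.18 to 0 in cKO, and *Slfnl1*, on chromosome 4, stayed between 0.218 and 0.862.

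Members of the family share sequence, so reads may have been divided among them. Between coding sequences of the GENCODE vM1 transcripts, *Slfn3* and *Slfn4* were 95.3% identical, *Slfn9* and *Slfn10-ps* 93.7%, *Slfn8* and *Slfn10-ps* 92.9%, and *Slfn8* and *Slfn9* 92.7% (2534 of 2733 bases). Of all 50-base windows of a transcript, 15.4% in *Slfn8*, 14.2% in *Slfn9*, 14.3% in *Slfn3*, 4.27% in *Slfn2*, 0.606% in *Slfn1* and 0% in *Slfn5* occurred letter for letter in another Slfn transcript. At 100 bases the shares were 3.71% in *Slfn8*, 4.99% in *Slfn9*, 0.128% in *Slfn2* and 0% in *Slfn3*, *Slfn1* and *Slfn5*. The read length was not given in the sources used here, and the values of *Slfn3*, *Slfn8* and *Slfn9* are uncertain to the extent that shared reads were split.

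*Slfn8* and *Slfn9*, neighbours whose coding sequences were 92.7% and upstream windows 85.1% identical, went in opposite directions. *Slfn8* was 13.5 times *Slfn9* in WT day 0 and 1.83 times in WT day 3, and 17.7 and 2.56 times in cKO. *Slfn9* made up 6.90% of the pair's FPKM in WT day 0 and 35.3% in WT day 3, and 5.34% and 28.1% in cKO. Sums over like genes were tried only once the values had been seen. Summed as 1 gene, the pair went from 43.2 to 27.4 FPKM in WT (log2 ratio -0.66) and from 42.3 to 31.5 in cKO (-0.42). With *Slfn10-ps* added, the sum went from 53.4 to 40.8 FPKM in WT (-0.39) and from 54.2 to 44.8 in cKO (-0.27). All these ratios were within the size rule. The letters of the response element were the same in both promoters. *Slfn3* summed with *Slfn4* kept log2 ratios of 1.68 in WT and 2.03 in cKO.

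**Figure D4:**
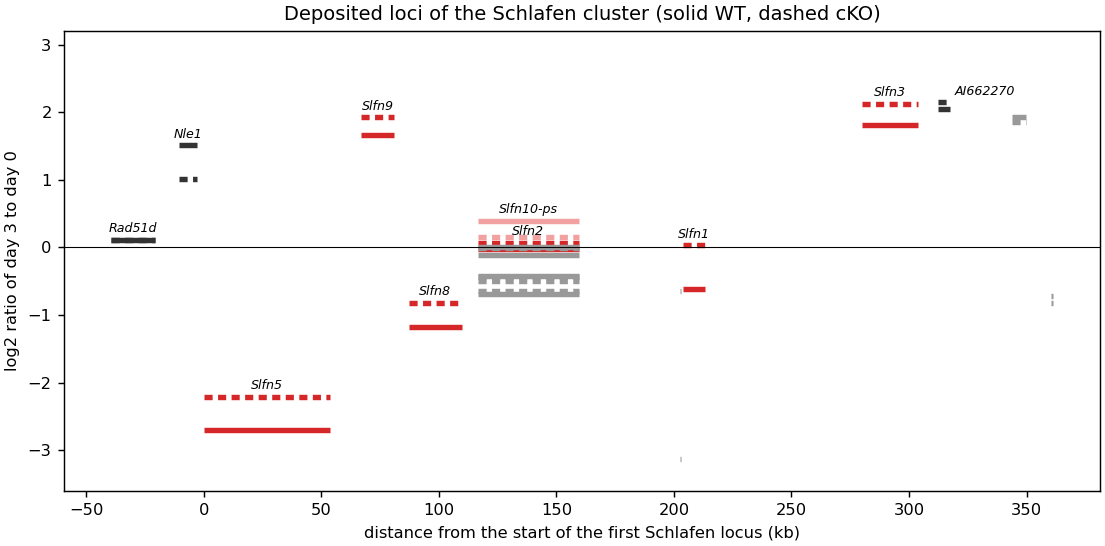
Deposited loci of the Schlafen cluster, each drawn over its length at its log2 ratio of day 3 to day 0 (y axis; solid WT, dashed cKO) against the distance in kb from the start of the *Slfn5* locus (x axis); members are red, *Slfn10-ps* pink, other named genes black and unnamed loci grey. *Slfn5* (-2.70 and -2.21) and *Slfn9* (1.66 and 1.93) are neighbours with opposite ratios, and *AI662270*, next to *Slfn3* (1.82 and 2.13), lies at 2.04 and 2.15.

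Between *Slfn3* and *Slfn14* lay 3 loci, of which the nearer ones had activation ratios near that of *Slfn3*. The long non-coding RNA gene *AI662270* (chr11:83223576-83228891), the next locus after *Slfn3*, was at 44.5 FPKM on day 0 and 184 on day 3 in WT, and at 36.1 and 161 in cKO (log2 ratios 2.04 and 2.15). An unnamed locus (chr11:83254889-83260920) had ratios of 1.94 in WT and 1.85 in cKO, and a further unnamed locus (chr11:83271743-83272310) had -0.83 and -0.72. Of 8 unnamed loci within the cluster 7 were measured, with 1 higher and 0 lower past the rule in WT, and 1 higher and 1 lower in cKO. The lower locus (chr11:83113888-83114204), just before *Slfn1*, had -0.64 in WT and -3.13 in cKO. It went from 2.89 to 1.81 FPKM in WT and from 5.87 to 0.583 in cKO. Beyond the cluster, within 500 kb on either side, 29 named genes lay outside the family and 16 of them were measured, of which 4 were higher and 2 lower past the rule in WT, and 2 higher and 0 lower in cKO. Over all genes measured, 27.8% were past the rule in WT and 24.3% in cKO. The nearest before the cluster was *Nle1*, a ribosome assembly factor, 2858 bases away, with 1.51 in WT and 1.01 in cKO. Nearest after it, 4973 bases away, lay the row *AA465934*, *AI450353* (1.94 in WT and 2.30 in cKO) and *Ap2b1*, a subunit of the clathrin adaptor (0.45 and 0.19), on 1 deposited locus.

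The genes most like each member over the 4 libraries were found by the root mean square distance of log2 values centred on each gene's mean, over 8776 genes that reached 5 FPKM in some library. For *Slfn1* they were *Bach2*, a repressor that holds T cells from effector differentiation (distance 0.028), *Gm12238* (0.032) and the small RNA gene *Scarna6* (0.034), and 934 genes lay within 0.25. *Bach2* went from 23.4 to 15.6 FPKM in WT and from 24.2 to 23.8 in cKO, low in the same library as *Slfn1*. For *Slfn2* they were *Prmt10* (0.0078), *Aagab* (0.010) and *Zbtb9* (0.012), and 2524 genes with little difference between libraries lay within 0.25. For *Slfn3* they were *Sgol1*, the protector of sister chromatid cohesion (0.013), *Syne3* (0.018) and the row *St6galnac4*, *St6galnac6* (0.022), with 772 genes within 0.25.

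*Slfn5* had the fewest genes near its pattern, 92 within 0.25. It also had the largest activation ratios of the members in size without sign (2.70 in WT and 2.21 in cKO). A count within a fixed distance depends on how many genes have ratios of that size. The nearest to *Slfn5* were *Cd1d1*, which presents lipids to natural killer T cells (0.050), *Apbb1ip*, an adaptor of integrin activation (0.068), and *Ypel3* (0.072). For *Slfn8* they were *Arl5b* (0.025), *2010016I18Rik* (0.025) and *Fam193b* (0.025), with 770 within 0.25. For *Slfn9* they were the protease gene *Ctsz* (0.041), *Lrp8* (0.041) and *Med18* (0.042), with 924 within 0.25. A pattern over 4 libraries is a short one, and likeness in it is a description.

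Genes of T-cell quiescence and of the interferon response were listed for comparison with the family's 2 known settings. Of 22 quiescence genes 21 were measured: 11 were lower and 0 higher past the size rule in WT and 10 lower and 0 higher in cKO, with medians of -1.51 and -1.48. Over all genes measured, 8.84% were lower past the rule in WT and 6.96% in cKO, and the medians were 0.40 and 0.36. *Klf2*, a transcription factor that keeps T cells naïve and circulating, went from 131 to 5.87 FPKM in WT and from 139 to 14.9 in cKO (log2 ratios -4.46 and -3.21). *S1pr1*, the receptor for exit from lymphoid organs, went from 167 to 8.16 FPKM in WT and from 182 to 19.7 in cKO (-4.34 and -3.20). *Tcf7*, a factor of naïve and memory T cells, was at -3.02 and -2.02. *Slfn5* was the member in that range of ratios, whereas *Slfn2*, the member whose loss ends quiescence in mice, was at -0.02 and 0.07. Between genotypes the list's median ratio of cKO to WT was 0.06 on day 0 and 0.26 on day 3, with no gene past the rule.

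All 30 interferon-response genes were found, on 29 rows because *Ifit2* and *Ifit3* shared 1, and all 29 rows were measured after activation. Past the size rule, 3 were higher and 1 lower in WT and 4 higher and 1 lower in cKO, with medians of 0.15 and 0.51. Over all genes measured, 19% were higher and 8.84% lower in WT and 17.3% and 6.96% in cKO. The list's median in WT was -0.25 relative to the median gene and 0.55 with an FPKM minimum of 5. In cKO these were 0.15 and 0.70. *Isg15*, a ubiquitin-like modifier, was at 2.32 in WT and 2.31 in cKO, and *Mx1*, an antiviral GTPase, was at 2.24 and 2.62. *Oas2*, an oligoadenylate synthetase, was at -2.21 and -2.16. Of the Schlafen members whose windows held the motif letters, *Slfn5* was lower and *Slfn9* higher past the rule, and *Slfn8* was lower within it. Relative to the median gene in WT, *Slfn8* was past the rule and *Slfn9* within it. Whether interferon had a part in these values was not tested. Between genotypes the list's median ratio of cKO to WT was -0.21 on day 0 and 0.09 on day 3, with no gene past the rule.

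**Figure D5:**
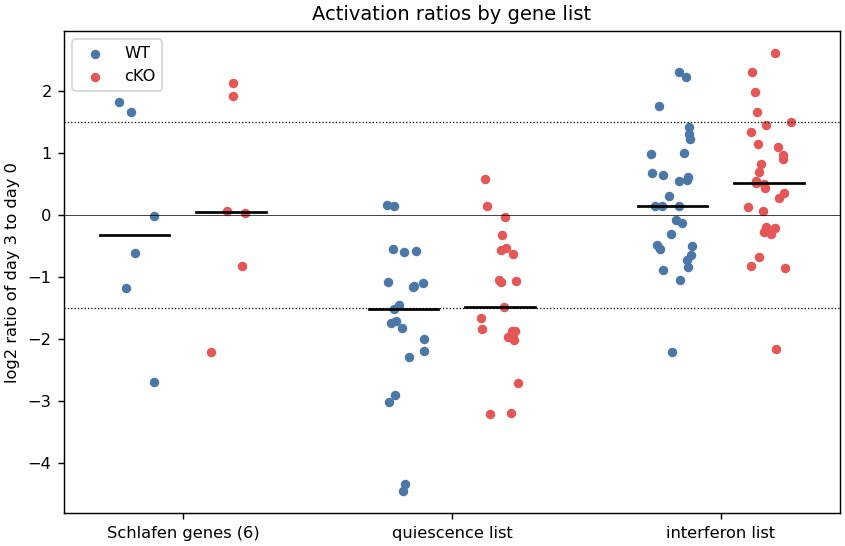
Log2 ratio of day 3 to day 0 for each gene of the Schlafen family and of the quiescence and interferon lists, in WT (blue) and cKO (red); black bars are medians and dotted lines the size rule of 1.5. The quiescence list has medians of -1.51 and -1.48, and the interferon list 0.15 and 0.51 (-0.25 and 0.15 relative to the median gene). The 6 Schlafen genes spread from -2.70 to 1.82 in WT and from -2.21 to 2.13 in cKO.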

How the data were processed

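RNA-seq libraries had been prepared with a TruSeq kit by the labels; RNA extraction was with Trizol by the labels and with ReliaPrep by the published methods. The submitters' processing notes list CASAVA, TopHat2 2.0.10, Cufflinks 2.1.1 and mm9. The authors deposited FPKM values, estimated from mapped fragments and scaled by transcript length and depth, in 4 tables of 31171 loci, of which 23.3% had no gene name; 25 names that had turned into dates in 1 table were read from the other. The 2 tables comparing days were used. In the 2 tables headed as cKO against WT, each FPKM column was a weighted mean of 2 libraries (median deviation at most 2.14e-06 on the log2 scale), and they were not used. The p-values, q-values and log2 columns of the tables hold the authors' own comparisons and were not used, nor were 16 annotation tables.

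Deposited starts count from 0, so 1 was added (of 9530 genes with the RefSeq end, 70.4% then had the RefSeq start). Ratios were log2((a + 0.1)/(b + 0.1)), with an FPKM minimum of 1 and a threshold of 1.5, the size the study's methods use. The labels put each library in its group. Members and lists were chosen with earlier results of these data known. Named were the 6 members, all other Slfn genes, the neighbours nearest the cluster, the 3 genes most like each member, and up to 3 genes of each list. *AI662270*, the unnamed loci within the cluster and the *Cic* values were added after values were seen. One neighbour that the rule names is not reported here. Lists covered quiescence, interferon response, T cells, B cells, macrophages and monocytes, neutrophils, erythroid cells, plasmacytoid dendritic cells and dividing cells. Alternatives were pseudocounts of 1 and 0.01, minimums of 5 and none, centring on the median gene, a threshold of 1, summing overlapping Schlafen rows and, chosen after seeing the data, summing *Slfn8* and *Slfn9*. Depth was not known, so no counting interval was given. The ratio calculation was tested on simulated data. Promoters were from RefSeq and transcripts from GENCODE vM1. Computation used Python 3.11.15 with pandas 2.3.3, numpy 2.4.6, Biopython 1.88 and matplotlib 3.10.9.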

Additional observations from a re-analysis of the deposited data

Results flagged for a closer look

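The activation ratios of *Slfn1* and *Slfn2* had opposite signs in the 2 genotypes, with 1 library per condition, and the difference was not tested. For *Slfn1* the log2 ratio of day 3 to day 0 was -0.62 in WT and 0.04 in cKO, a difference of 0.65. For *Slfn2* it was -0.02 in WT and 0.07 in cKO, a difference of 0.089. Relative to the median gene both ratios of both genes were below 0.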

How the results depend on the processing

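In WT, the count of members past the size rule was 3 as reported, beside 27.8% of all genes. It was 2 with a pseudocount of 1 (*Slfn3*, *Slfn5*), beside 19.6%, and 2 after centring on the median gene (*Slfn5*, *Slfn8*), beside 25.2%. With a threshold of 1 on the log2 scale it was 4, beside 44.3%. In cKO it was 3 under each of these alternatives, beside 16.7%, 22.3% and 40.7% of all genes in the same order. With *Slfn8* and *Slfn9* summed as 1 gene, it was 2 of 5 in both genotypes, beside 27.8% in WT and 24.3% in cKO. In the comparisons of cKO with WT it was 0 under every alternative run, and an FPKM minimum of 5 left 4 members on day 0. The share of higher genes among all past the rule went from 68.2% to 49.8% in WT and from 71.3% to 53.9% in cKO after centring, and with no FPKM minimum the genes past it numbered 4150 in WT. The genes past the rule on day 0 numbered 251 as reported, 73 with a pseudocount of 1 and 750 with no minimum, and on day 3 they numbered 213, 77 and 609. Of the other values, those of single members and lists, 226 moved by at most 0.25 on the log2 scale (1.5 times for a count), 24 moved further, and 0 of those past the rule changed sign. After centring, the median of the interferon list went from 0.15 to -0.25 in WT and from 0.51 to 0.15 in cKO. *Slfn1* and *Slfn2* in cKO went from 0.04 to -0.33 and from 0.07 to -0.29. With overlapping Schlafen rows summed, *Slfn2* in WT went from -0.02 to 0.02. No paired analysis was possible because each group had 1 library, which also left no replicate to leave out. The cause of these shifts was not tested. Depth was not known, so the error of low values such as those of *Slfn4* and *Slfn14* could not be estimated.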
